A study of Oryza sativa Indica Group with 18 samples.

Results

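The α-amylases AMY1.1 and AMY1.3, the cysteine protease EP3A, the globulin-named gene GLB1 and the lipid transfer protein LTP-2 are rice genes named for products of the grain, and their signal was followed in heated seedlings. They were chosen by symbol or synonym in the array annotation, with their values on these arrays already known, in order to set signal from grain RNA beside a response to heat. They make up 5 of the 17905 annotated genes that have a probe set of their own, and 6 probe sets read them, because AMY1.3 has 2. Because the choice rested on these same values, the levels and differences of the 5 genes are given as a description, with no test. AMY1.1 is also listed as AMY1A, AMY1.3 as RAmy3D, EP3A as REP1 and SAG12, GLB1 as GLB and LTP-2 as nsLTP2.

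Total RNA of whole seedlings, 7 days old and grown hydroponically, was hybridised to 18 Affymetrix rice arrays. The cultivars Annapurna and IR64 each gave a control group kept at 28 °C for 3 h, a group given 1 h of 37 °C, and a group given the same hour followed by 2 h of 42 °C, called 42 °C here. Each of the 6 groups has 3 arrays labelled as biological replicates, and the labels do not say whether these were separate cultures, so the spread may be partly technical. The series title sets a tolerant against a susceptible cultivar without the sources used here saying which is which, and the labels do not say whether the remains of the sown grain were extracted with the seedling. The control and the 42 °C groups were both taken at 3 h and the 37 °C groups at 1 h, so heat and time cannot be told apart at 37 °C.

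In a germinating cereal grain the aleurone and the scutellum secrete α-amylases, which break down endosperm starch, and cysteine proteases, which break down the storage proteins. Gibberellin switches on amylases of the AMY1.1 type through the factor GAMYB, whereas RAmy3D, the AMY1.3 gene, is the classic amylase of sugar starvation. Globulins are storage proteins of the seed, and lipid transfer proteins are small secreted proteins that bind lipids in many plant tissues.

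Values are linear intensities as deposited, in arbitrary units that are comparable between arrays for 1 probe set but not between probe sets. Array medians lay between 7.57 and 8.19, so a probe set reading 4 to 10 stood at about the middle of its array or below it. The values used here carry no detection call, and a ratio to so low a reading is a ratio of readings only. Arrays of 1 group correlated at 0.997 to 0.999 and arrays of different groups at 0.961 to 0.987 (Pearson's r of log2 intensity across probe sets). Of the shoot markers 3 of 4 read over 50 on every array, and of the root markers 7 or 8 of 10. The summed root marker intensity was 25546 to 27593 in Annapurna 42 °C, against 10349 to 12669 in Annapurna control, and 14456 to 15364 in IR64 42 °C, against 13513 to 16112 in IR64 control. The summed shoot marker intensity was 85135 to 88826 in Annapurna 42 °C, against 77275 to 81139 in Annapurna control, and 80147 to 82086 in IR64 42 °C, against 60297 to 65558 in IR64 control. PORA, 1 of the 4 shoot markers, averaged 13933 in Annapurna 42 °C and 2594 in Annapurna control. In IR64 it averaged 11367 at 42 °C and 1635 in control. By group mean, PORA rose by more than the whole sum did in Annapurna, so the other shoot markers together fell there. In IR64 it rose by less than the sum, so the others together also rose. The part of these shifts in the levels of the 5 grain genes was not tested.

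AMY1.1 gave the widest range of the 5 genes, and nearly all of it lay in IR64. In IR64, AMY1.1 read 37.9, 41.6 and 3532 on the 3 control arrays, 5.65, 5.65 and 5.62 at 37 °C, and 8767, 9204 and 10078 at 42 °C. In Annapurna, AMY1.1 read 5.49, 5.48 and 124 on the control arrays, 5.41, 5.54 and 5.54 at 37 °C, and 5.47, 5.47 and 5.49 at 42 °C. All 3 IR64 42 °C arrays therefore stood above every other array, and the next reading was a single control array, IR64 control replicate 3. All 9 heated arrays other than IR64 42 °C stayed between 5.41 and 5.65.

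The mean of AMY1.1 was 9350 ± 667 in IR64 42 °C and 1204 ± 2016 in IR64 control (SD, n = 3 each), a ratio of 7.77 that replicate 3 of the control decides. Without that array the same ratio was 235. On the log2 scale with 16 added the difference was 5.39 ± 1.19 (SE) over all arrays and 7.39 without replicate 3 of both control groups. The SD exceeded the mean in both control groups, with 45.0 ± 68.4 in Annapurna control, and was 0.0717 or less around means of 5.48 to 5.64 in the 3 heated groups at low level. By mean, IR64 42 °C stood clear of IR64 control, whose arrays overlapped with Annapurna control in range, as did those of Annapurna control with IR64 37 °C.

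EP3A, the protease, shared the odd control array with AMY1.1 but not the size of the 42 °C signal. In IR64, EP3A read 8.65, 6.98 and 102 on the control arrays, between 5.98 and 6.02 at 37 °C, and 52.3, 45.3 and 41.5 at 42 °C. In Annapurna, EP3A read 5.87, 5.87 and 7.97 on the control arrays and between 5.88 and 6.28 on the 6 heated arrays. The IR64 42 °C arrays lay between the low and the high control array, so the groups overlapped. The mean was 46.3 ± 5.48 in IR64 42 °C and 39.3 ± 54.6 in IR64 control (SD, n = 3 each). The ratio of these means was 1.18 with all control arrays and 5.93 without replicate 3.

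**Figure D1:**
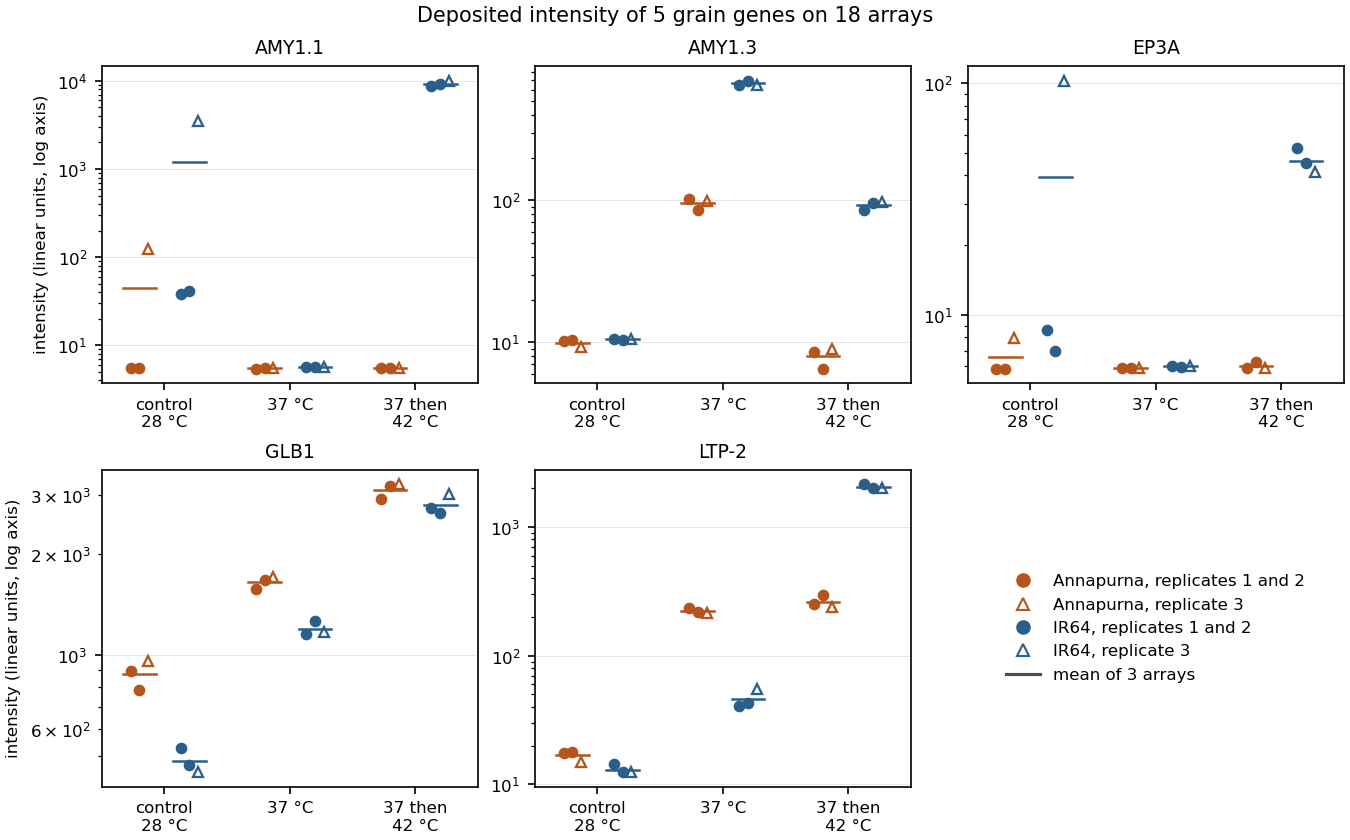
Deposited intensity (linear units, log axis, a different range in each panel) of the 5 grain genes on all 18 arrays, by heat step, with Annapurna left of IR64 at each step; circles are replicates 1 and 2, open triangles replicate 3, bars the mean of 3 arrays. AMY1.1 reads 8767 to 10078 in IR64 42 °C and 3532 on 1 IR64 control array, while GLB1 and LTP-2 show no such array.

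On IR64 control replicate 3, AMY1.1 read 88.9 times the mean of the other 2 controls and EP3A read 13.1 times that mean. AMY1.3, GLB1 and LTP-2 read 1.00, 0.895 and 0.928 times the mean of the other 2 controls on the same array. The array thus departed for 1 amylase and the protease while the other 3 genes stayed near their partners. Compared with IR64 42 °C, AMY1.1 on this array was 0.378 times the heated mean, and EP3A was 2.21 times the heated mean. On Annapurna control replicate 3, AMY1.1 read 22.6 times and EP3A 1.36 times the mean of the other 2 controls.

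Few other genes departed on these arrays. On IR64 control replicate 3, 0.067% of all 17905 genes stood at least 2-fold above and 0.128% at least 2-fold below the mean of its partners, on the log2 scale with 16 added, 12 genes and 23 genes. On Annapurna control replicate 3 these shares were 0.112% and 0.0503%, 20 genes and 9 genes. Of 74 other grain genes, 1 stood 2-fold above on IR64 control replicate 3 and 0 on Annapurna control replicate 3, while 0 stood 2-fold below on either array. The 1 gene was EM, a late embryogenesis protein, which read 55.8 on that array against 25.2 and 13.2 on its partners. AMY1.4 read 9.39 on the same array and between 4.55 and 5.08 on the other 17, under the 2-fold limit once 16 is added.

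The genes with names that departed most on IR64 control replicate 3, after AMY1.1 and EP3A, were a small heat shock protein gene and 3 genes that stood below their partners. HSP18.1 read 83.8, against 9.17 and 38.1, and averaged 38304 in IR64 37 °C and 12276 in IR64 42 °C. CYP71Z7, a cytochrome P450 gene, read 57.2, against 187 and 176, and LAC24, a laccase gene, read 173, against 473 and 450. CYP99A2, a further P450 gene, read 91.5, against 209.9 and 225. On Annapurna control replicate 3 the leading names after AMY1.1 were OrysaZxb at 173, against 12.9 and 15.0, and MT-1-4b, a metallothionein gene, at 7187, against 24651 and 23106.

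The same control array was read at the genes that IR64 42 °C raised from the lowest levels, a set taken up after its values were seen. Of 17905 genes, 6 read over 500 on every IR64 42 °C array and under 20 on IR64 control replicates 1 and 2. The small heat shock protein gene HSP26.7 read at least 9164 on the IR64 42 °C arrays and 6.38 on IR64 control replicate 3. HSP23.2 read at least 3005 on the IR64 42 °C arrays and 13.8 on the control array. LTP-2 is another of the 6, and only 1 of them, LOC4330830, stood over 50 on IR64 control replicate 3. Of all genes, 0.067% stood at least 2-fold above their partners on that array. The limit of 20 leaves out AMY1.1, at 37.9 and 41.6 on the partner arrays, and HSP18.1, at 9.17 and 38.1. HSP18.1 read 83.8 on IR64 control replicate 3 and averaged 12276 in IR64 42 °C, so the 6 do not stand for all heat-raised genes. The 5′ actin control probe set read 475 on that array, against 603 and 662 on its partners. On the Annapurna controls it read 234, 457 and 434, lowest on replicate 1. No other actin probe set was read beside it, so these levels do not separate RNA quality from actin expression. The part of RNA quality in the AMY1.1 and EP3A readings was not tested.

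LOC4330830 was also the gene whose pattern over the 18 arrays was most like that of AMY1.1, with a Pearson r of 0.983 among 13381 genes compared. It lies next to AMY1.1 in the reference gene table (assembly ASM3414082v1), and it has a probe set of its own. LOC4330830 read 13.2, 12.7 and 457 on the IR64 control arrays, 11.4, 11.9 and 11.7 at 37 °C, and 1069, 1096 and 832 at 42 °C. On the 9 Annapurna arrays it read between 10.1 and 25.4, with the highest on control replicate 3, the same array on which AMY1.1 read 124. Whether RNA of either neighbour binds the probes of the other was not tested.

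LOC4344595, on another chromosome, came next with an r of 0.977 to AMY1.1 and was first for EP3A with 0.929. It read 6.47, 6.46 and 103 on the IR64 control arrays, 6.37, 6.51 and 6.34 at 37 °C, and 127, 165 and 180 at 42 °C. On the Annapurna arrays it read between 6.17 and 6.30 throughout, control replicate 3 included. LOC4329252 and LOC4340592 followed for AMY1.1 with r of 0.922 and 0.910, and LOC4325464 was the fourth gene for EP3A with 0.834. AMY1.1 and EP3A correlated with each other at 0.928 over the 18 arrays. All genes compared share these arrays, and AMY1.1 read over 124 only on the 3 IR64 42 °C arrays and IR64 control replicate 3. The like genes were picked by r over the same arrays, so high readings shared with AMY1.1 follow from the choice. LOC4344595 passed the limit of a group mean over 100 only through IR64 42 °C, where it averaged 158.

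**Figure D2:**
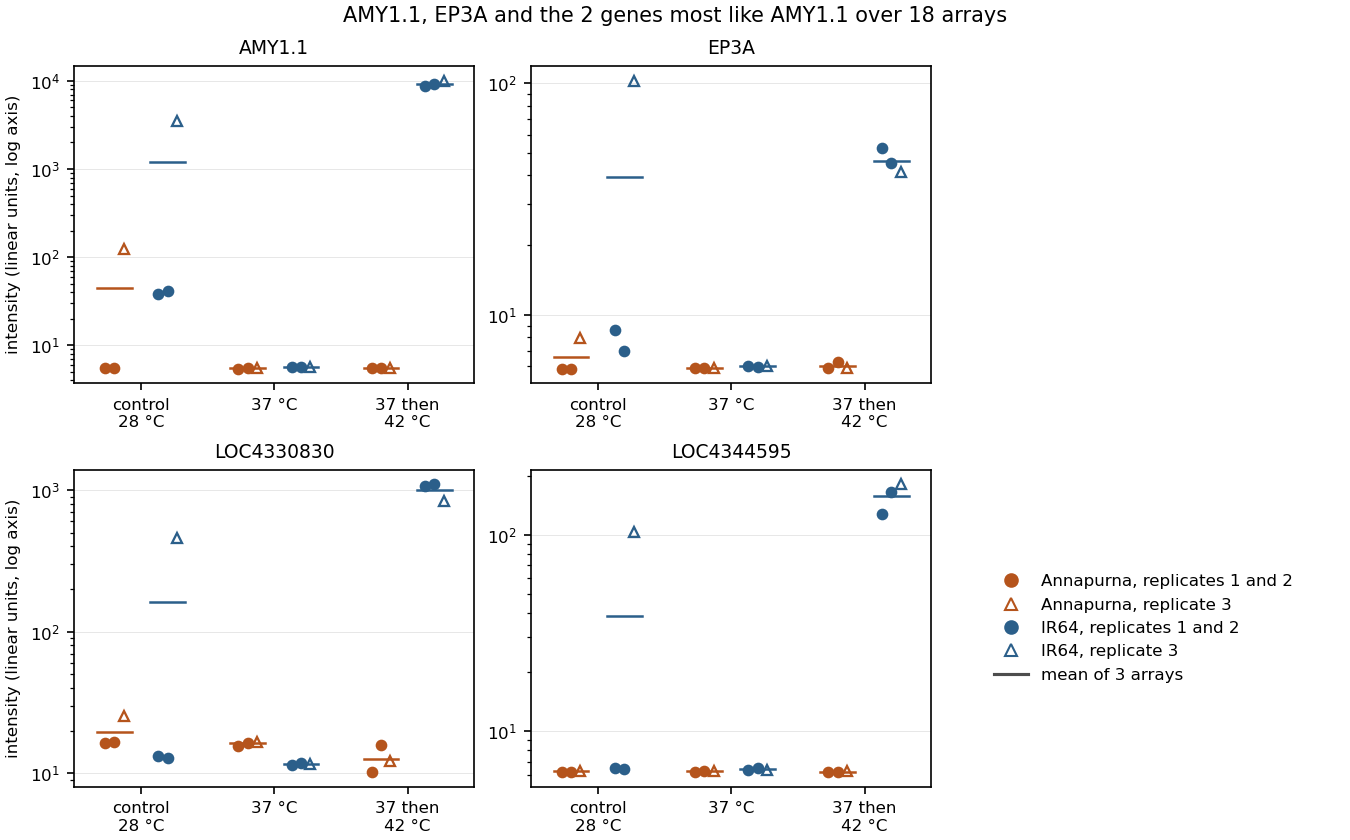
Intensity (linear units, log axis) of AMY1.1, EP3A and the 2 genes most like AMY1.1 on 18 arrays by heat step, with Annapurna left of IR64; circles are replicates 1 and 2, open triangles replicate 3, bars the mean of 3 arrays. All 4 genes read high in IR64 42 °C and on IR64 control replicate 3, and stay low on the 6 arrays at 37 °C. The 2 like genes were picked for their likeness on these arrays, so their shared pattern is no separate evidence.

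AMY1.3, the sugar starvation amylase, peaked at 37 °C in both cultivars and had no odd control array. In IR64, AMY1.3 read 10.5, 10.4 and 10.5 on the control arrays, 652, 697 and 654 at 37 °C, and 86.2, 95.8 and 97.2 at 42 °C. In Annapurna, AMY1.3 read 10.2, 10.4 and 9.24 on the control arrays, 103, 85.7 and 98.4 at 37 °C, and 8.49, 6.53 and 8.91 at 42 °C. The 37 °C arrays stood clear of the control arrays in both cultivars, and at 42 °C the IR64 arrays did so while the Annapurna arrays read below all 3 controls.

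The mean of AMY1.3 was 95.7 ± 8.90 in Annapurna 37 °C and 9.93 ± 0.604 in Annapurna control (SD, n = 3 each), a log2 difference of 2.10 ± 0.071 (SE). In IR64 it was 668 ± 25.7 at 37 °C and 10.5 ± 0.0385 in control (SD, n = 3 each), a log2 difference of 4.69 ± 0.071. These differences depend on the constant added, being 3.14 in Annapurna and 5.86 in IR64 with 1 added, and 1.11 and 3.30 with 64 added. As the mean of both probe sets they were 1.05 in Annapurna and 2.34 in IR64. At 42 °C the log2 difference from control was -0.11 in Annapurna and 2.04 in IR64. Ordered by level, IR64 37 °C came first, and Annapurna 37 °C and IR64 42 °C followed with overlapping arrays. IR64 control, Annapurna control and Annapurna 42 °C came last, without overlap but all under 10.6. The other probe set of AMY1.3 read between 4.05 and 4.25 on all 18 arrays, so the pattern rests on 1 probe set.

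The genes most like AMY1.3 were SAT1, LOC4324793, LOC4336810 and LOC4328109, with r of 0.986, 0.985, 0.980 and 0.974. LOC4324793 averaged 3919 in Annapurna 37 °C and 1470 in Annapurna control, and 8674 in IR64 37 °C and 1632 in IR64 control. AMY1.3 and AMY1.1 correlated at -0.02.

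GLB1 differed from the amylases in reading well above the array median everywhere and in stepping up with each heat stage. In Annapurna, GLB1 read 898, 783 and 956 on the control arrays, 1575, 1678 and 1715 at 37 °C, and 2931, 3199.6 and 3237 at 42 °C. In IR64, GLB1 read 528, 467 and 445 on the control arrays, 1155, 1264 and 1169.7 at 37 °C, and 2743, 2663 and 3025 at 42 °C. Within each cultivar no array of 1 step overlapped with another step.

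The mean of GLB1 at 42 °C was 3122 ± 167 in Annapurna 42 °C and 879 ± 88.4 in Annapurna control, a ratio of 3.55 (SD, n = 3 each). In IR64 it was 2810 ± 190.1 at 42 °C and 480.2 ± 42.8 in control, a ratio of 5.85 (SD, n = 3 each). Annapurna read above IR64 on every array in the control, 879 to 480.2 on average, and at 37 °C, 1656 to 1196. At 42 °C the 2 cultivars overlapped.

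Storage protein genes on the array were read beside GLB1, which is a globulin by name only, as the annotation used gives no protein description. Of 10 storage protein genes, 9 read between 4.09 and 14.6 on all 18 arrays. Among them were the glutelins GluB4 and GluB5, the prolamin PROLM25 and the allergen genes RAG1 and RA5. The tenth, the glutelin GLUA2, read between 201 and 376. Levels of different probe sets cannot be compared, so these readings do not bear on the level of GLB1. The gene most like GLB1 was PORA, a chlorophyll synthesis gene of the shoot marker list, with an r of 0.993, followed by LOC4327435, OsSAP8 and APRL2 with 0.991, 0.988 and 0.985. OsSAP8 is a stress-associated zinc finger protein gene. PORA averaged 13933 in Annapurna 42 °C and 2594 in Annapurna control, and 11367 in IR64 42 °C and 1635 in IR64 control.

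LTP-2 was read under 18 in control seedlings and at 40 or more in all heated groups, with the cultivar order turned between the heat steps. In Annapurna, LTP-2 read 17.6, 17.7 and 14.9 on the control arrays, 234, 219.8 and 216 at 37 °C, and 253, 298 and 238 at 42 °C. In IR64, LTP-2 read 14.3, 12.4 and 12.4 on the control arrays, 40.3, 43.0 and 55.3 at 37 °C, and 2145, 2012 and 2028 at 42 °C. Every heated array stood above every control array. At 37 °C the 3 Annapurna arrays stood above the 3 IR64 arrays, and at 42 °C the 3 IR64 arrays stood above the 3 Annapurna arrays.

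The log2 difference of LTP-2 from control was 2.87 ± 0.0885 (SE) in Annapurna 37 °C and 1.09 ± 0.0885 in IR64 37 °C. At 42 °C it was 3.08 ± 0.0885 in Annapurna and 6.16 ± 0.0885 in IR64. In plain intensity, LTP-2 averaged 2062 ± 72.5 in IR64 42 °C and 13.0 ± 1.11 in IR64 control (SD, n = 3 each), a ratio of 158. In Annapurna the 37 °C and 42 °C arrays lay close to each other, at means of 223 and 263, without overlap. The genes most like LTP-2 were LOC4339527, LOC9268636, DOHH-B and LOC4346629, with r of 0.973, 0.964, 0.961 and 0.960. DOHH-B, a deoxyhypusine hydroxylase gene, averaged 718 in IR64 42 °C and 357 in IR64 control.

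Set side by side, the 5 genes fell into different patterns over the 6 groups. By group mean, AMY1.1 and EP3A were highest in IR64 42 °C, with IR64 control replicate 3 apart from its partners for both genes and Annapurna control replicate 3 for AMY1.1. On single arrays EP3A was highest on IR64 control replicate 3. By group mean, AMY1.3 was highest in IR64 37 °C, GLB1 in Annapurna 42 °C and LTP-2 in IR64 42 °C. GLB1 and LTP-2 correlated at 0.86 and AMY1.1 and LTP-2 at 0.55 over the 18 arrays. The remaining pairs other than AMY1.1 with EP3A lay between -0.06 and 0.39. In whole seedlings, more cells of a type and more RNA per cell cannot be told apart for any of these genes.

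The comparison was then extended to 74 other genes of grain and reserve metabolism in 10 lists, which were tested with limma across all probe sets. A call needed a 2-fold difference or more and an adjusted p, after Benjamini-Hochberg, below 0.05. In Annapurna 37 °C, 8 of the 74 were called higher and 4 lower than control, against 5.56% and 4.75% of all genes. In IR64 37 °C, 9 were called higher and 2 lower, against 5.15% and 4.07%. In Annapurna 42 °C, 4 were called higher and 3 lower, against 3.4% and 5.5%. In IR64 42 °C, 10 were called higher and 2 lower, against 6.45% and 5.1%. The median log2 difference of the 74 genes was between 0.00 and 0.08 in these 4 comparisons, and that of all genes between -0.01 and 0.01.

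Of the 3 other α-amylase genes 0 were called by limma in any of 9 comparisons, against 2.82% to 11.5% of all genes called in either direction. With so few genes, 0 calls say little beside these shares. At an unadjusted p under 0.05 there were 0 to 2 of them, and also 0 to 2 at a limma adjusted p under 0.05. AMY1.5 averaged 29.1 in Annapurna 42 °C and 17.1 in Annapurna control, and 46.8 in IR64 42 °C and 25.1 in IR64 control. Its log2 differences of 0.44 and 0.61 (limma adjusted p of 0.00694 and 0.000197) were under the 2-fold limit. AMY1.4, which lies next to AMY1.3 in the reference table, averaged 4.75 in IR64 42 °C and 6.35 in IR64 control. AMY1.2 read between 4.43 and 4.66 on all arrays. GAMYB, the gibberellin-responsive factor, averaged 161 in Annapurna 42 °C and 135 in Annapurna control, and 129.5 in IR64 42 °C and 102 in IR64 control, and was not called.

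Of 10 storage protein genes 0 were called by limma in any of 9 comparisons, against 2.82% to 11.5% of all genes called in either direction. Of these, 9 read between 4.09 and 14.6 on all 18 arrays, too low to differ 2-fold once 16 is added. Their lack of calls was therefore fixed beforehand and says nothing about their response. At an unadjusted p under 0.05 there were 1 to 8 of the 10, and the share of all genes at that p was not counted. Of 6 grain proteases and peptidases 0 were called against control, where 8.90% to 11.5% of all genes were called in either direction. At an unadjusted p under 0.05 there were 2 to 4 of them, and also 2 to 4 at a limma adjusted p under 0.05. ASP1, an aspartic protease gene, was called higher in Annapurna 42 °C than in IR64 42 °C, with means of 70.8 and 11.9 and a log2 difference of 1.64 (limma adjusted p = 2.44e-08). Of 6 other lipid transfer protein genes, OsC4 alone was called against control, in IR64 42 °C, where 11.5% of all genes were called in either direction. OsC4 averaged 157 ± 42.3 in IR64 42 °C and 45.9 ± 0.527 in IR64 control (SD, n = 3 each), a log2 difference of 1.46 (limma adjusted p = 9.26e-07). The highest of that list, LTP110-A, averaged 27685 in Annapurna 42 °C and 25867 in Annapurna control, and 26214 in IR64 42 °C and 22059 in IR64 control, and was not called.

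The embryo maturation list held 2 aquaporin, 2 late embryogenesis and 1 membrane protein genes. Of these 5 genes 3 were called higher in Annapurna 37 °C, 3 in IR64 37 °C, 0 in Annapurna 42 °C and 4 in IR64 42 °C. Of all genes, 5.56%, 5.15%, 3.4% and 6.45% were called higher in these comparisons. The list medians were 2.27, 1.72, 0.31 and 2.02 log2. In Annapurna 42 °C 1 of the 5 had an unadjusted p under 0.05. These lists were chosen with results of these arrays known, so the counts are no independent evidence of a direction. OsTIP3;1, an aquaporin of the seed storage vacuole, read 871, 925 and 891 in IR64 42 °C, against 43.7, 38.2 and 42.2 in IR64 control, with no overlap. Its log2 difference was 3.99 ± 0.074 (SE; limma adjusted p = 3.47e-14). In Annapurna 42 °C it read 56.1, 58.1 and 50.4, against 44.8, 50.1 and 48.8 in Annapurna control, and was not called.

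OsPM19L1, a membrane protein gene of seed maturation, averaged 3832 ± 177 in Annapurna 37 °C and 462 ± 126 in Annapurna control (SD, n = 3 each), a log2 difference of 3.04 (limma adjusted p = 1.56e-10). It averaged 3995 ± 75.8 in IR64 42 °C and 355 ± 39.3 in IR64 control (SD, n = 3 each), a log2 difference of 3.44 (limma adjusted p = 4.25e-11). LEA19, a late embryogenesis protein gene, rose by 2.27 in Annapurna 37 °C, 1.72 in IR64 37 °C and 1.79 in IR64 42 °C (limma adjusted p of 1.92e-07, 3.89e-06 and 1.37e-06). EM rose by 2.32 in Annapurna 37 °C and 2.02 in IR64 42 °C (limma adjusted p of 7.11e-06 and 1.01e-05). EM read 37.8 on Annapurna control replicate 3, against 13.3 and 12.2 on its partners, so EM also spread among the controls. OsTIP3;2, the other seed aquaporin, read 5.22 to 5.80 on all arrays.

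**Figure D3:**
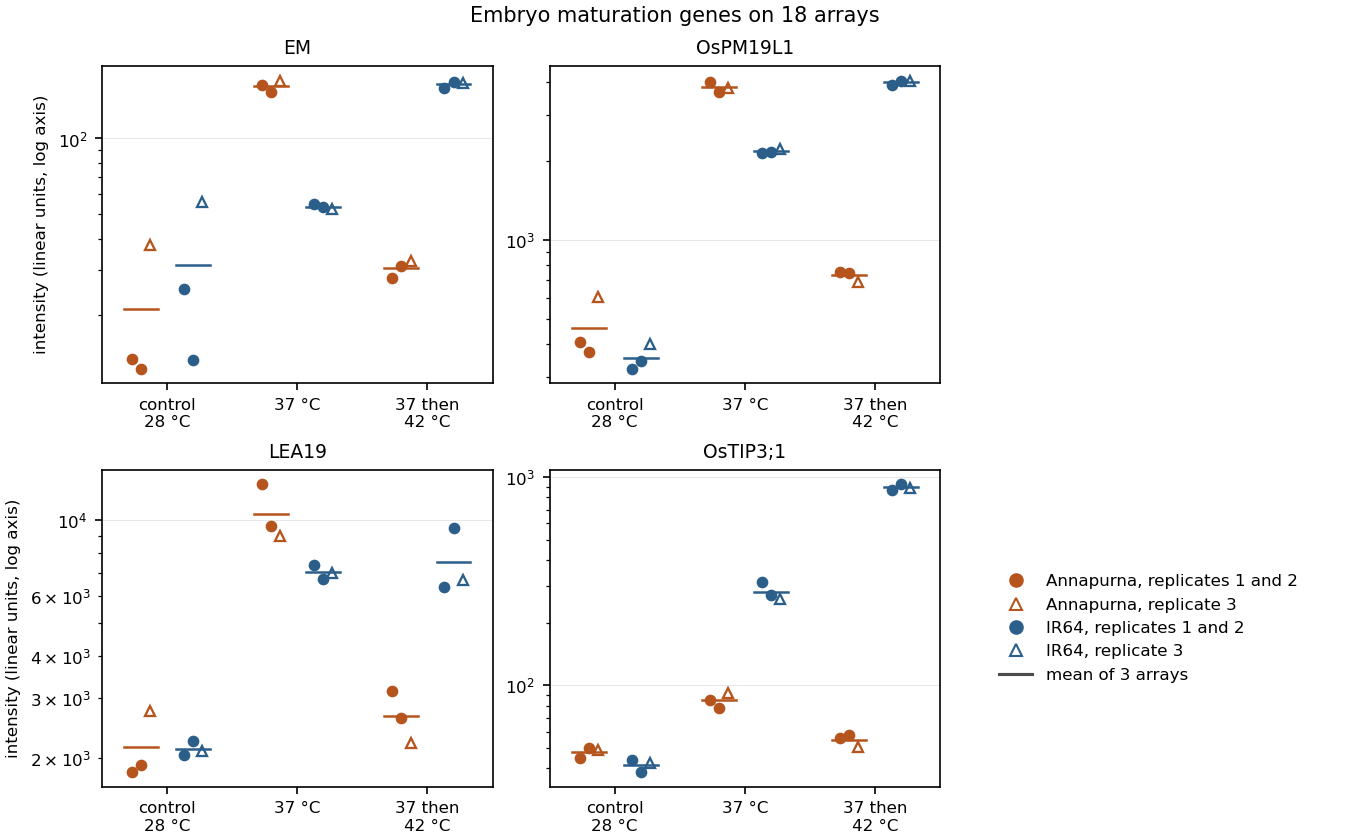
Intensity (linear units, log axis) of 4 embryo maturation genes on 18 arrays by heat step, with Annapurna left of IR64; circles are replicates 1 and 2, open triangles replicate 3, bars the mean of 3 arrays. In IR64 42 °C all 4 stand above their controls, while in Annapurna they lie nearer the control at 42 °C than at 37 °C.

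Among 13 genes tied to sugar and low oxygen control of amylases, 4 rose and 2 fell in Annapurna 37 °C and 4 rose in IR64 37 °C, against 10.3% and 9.22% of all genes called in either direction. At 42 °C 2 rose and 1 fell in Annapurna and 2 rose in IR64, against 8.90% and 11.5%. PDC1, a pyruvate decarboxylase gene of alcoholic fermentation, peaked like AMY1.3 at 37 °C. It read 471, 482 and 463 in Annapurna 37 °C, against 4.72, 6.66 and 8.54 in Annapurna control, a log2 difference of 4.43 (limma adjusted p = 6.55e-15). It read 221, 198 and 206 in IR64 37 °C, against 4.88, 5.11 and 4.87 in IR64 control, a log2 difference of 3.42 (limma adjusted p = 1.27e-13). At 42 °C PDC1 averaged 7.06 in Annapurna 42 °C and 10.1 in IR64 42 °C. PDC1 was higher in Annapurna than in IR64 at 37 °C, the opposite order to AMY1.3, with means of 472 and 209 (log2 difference 1.12, limma adjusted p = 3.35e-08).

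The hexokinase gene HXK6 (HXK7) rose in all 4 heat comparisons, by 2.02 in Annapurna 37 °C, 2.95 in IR64 37 °C, 1.27 in Annapurna 42 °C and 1.48 in IR64 42 °C (largest limma adjusted p = 1.92e-08). Adh2, an alcohol dehydrogenase gene, rose by 1.74 in Annapurna 37 °C, 1.54 in IR64 37 °C, 1.2 in Annapurna 42 °C and 1.83 in IR64 42 °C (largest limma adjusted p = 1.53e-06). TPP7, a trehalose phosphate phosphatase gene known for germination under water, averaged 843 in Annapurna 42 °C and 2264 in Annapurna control, and read 4.64 to 5.05 on all 9 IR64 arrays. TPP7 fell by 1.96 in Annapurna 37 °C and fell by 1.41 in Annapurna 42 °C on the log2 scale (limma adjusted p of 3.64e-10 and 1.44e-08).

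Of 13 gibberellin genes 1 was called in Annapurna 37 °C, 3 in IR64 37 °C, 0 in Annapurna 42 °C (limma, 8 at an unadjusted p under 0.05) and 2 in IR64 42 °C, against 10.3%, 9.22%, 8.90% and 11.5% of all genes called in either direction. The DELLA repressor SLR1 fell by 1.55 in Annapurna 37 °C and by 1.15 in IR64 37 °C (limma adjusted p of 1.13e-07 and 2.84e-06), and without IR64 control replicate 3 the IR64 difference was -0.9961, under the 2-fold limit. The gibberellin 20-oxidase gene GA20OX3 rose by 1.13 in IR64 37 °C and 1.19 in IR64 42 °C (limma adjusted p of 2.26e-08 and 9.78e-09). EUI1, a gibberellin deactivating enzyme gene, fell by 1.09 in both IR64 37 °C and IR64 42 °C (limma adjusted p of 0.00049 and 0.000153), and neither difference reached 2-fold without IR64 control replicate 2, at -0.93 each. KAO, a gibberellin synthesis gene, averaged 103 in Annapurna control and 257 in IR64 control, a log2 difference of -1.21 (limma adjusted p = 2.99e-06). RISBZ5, a bZIP factor, rose by 1.60 in Annapurna 37 °C and 2.37 in IR64 37 °C (limma adjusted p of 1.31e-10 and 2.5e-12). GWD3, a starch phosphorylating enzyme gene, fell by 1.06 in Annapurna 42 °C and by 1.59 in IR64 42 °C (limma adjusted p of 4.88e-07 and 5.57e-09), and without Annapurna control replicate 1 the Annapurna difference was -0.9743. Of 10 endosperm starch synthesis genes 2 were called higher in IR64 42 °C, against 6.45% of all genes. These were Sbe1, by 1.36, and SSI, by 1.22 (limma adjusted p of 3.49e-11 and 9.12e-09). In Annapurna 42 °C the cell wall invertase gene GIF1 rose by 1.59 and the starch synthase gene SSII-2 fell by 1.45 (limma adjusted p of 1.86e-09 and 6.46e-10).

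**Figure D4:**
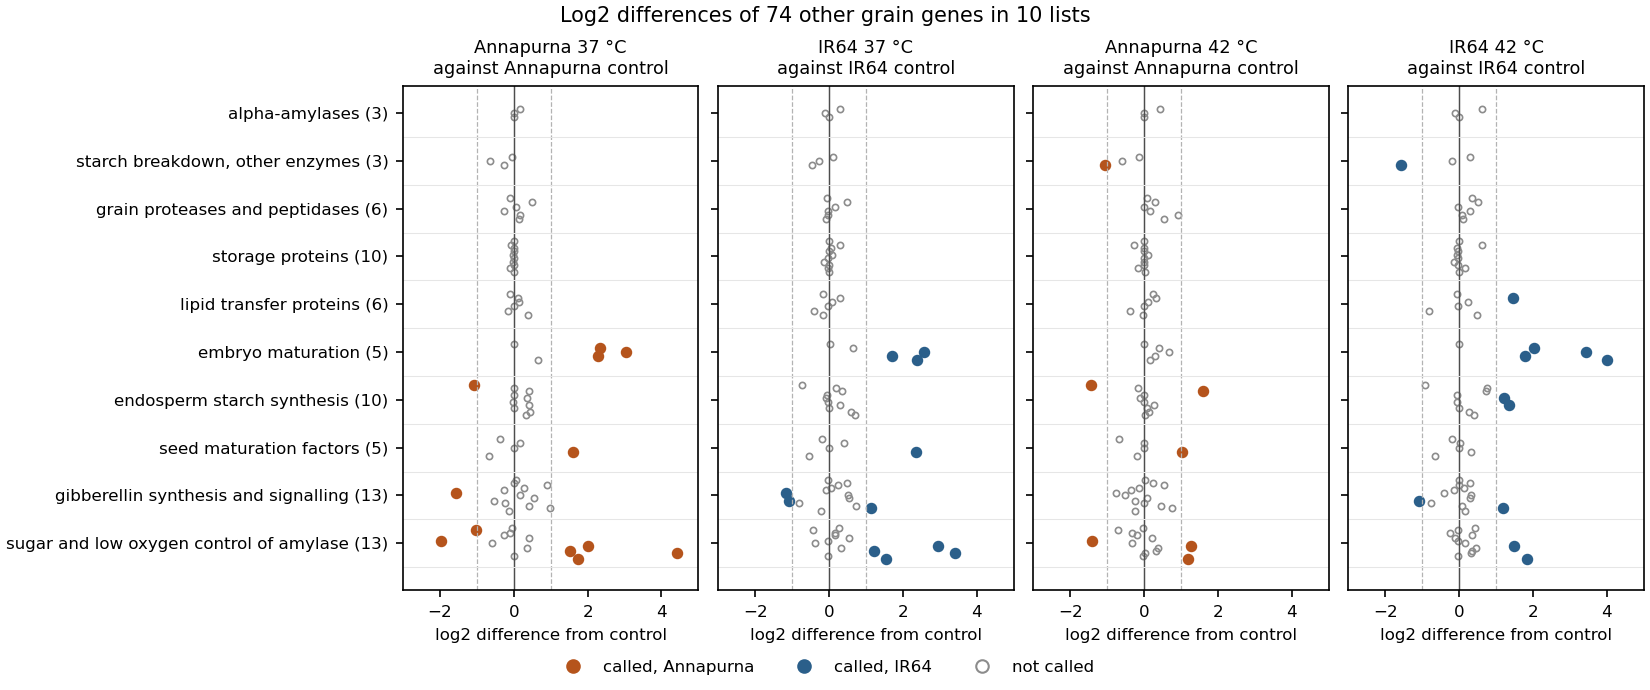
Log2 difference from control (log2 of intensity plus 16, dashed lines at 2-fold) of 74 other grain genes in 10 lists, list sizes in brackets, in the 4 heat comparisons; filled points were called, open points were not. The alpha-amylases and storage proteins hold no filled point, and the embryo maturation row holds 3, 3, 0 and 4. Of the storage proteins, 9 read too low to differ 2-fold once 16 is added.

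Between the cultivars the same 74 genes were tested at each step. In control seedlings 1 was higher and 2 were lower in Annapurna than in IR64, against 3.92% and 2.25% of all genes. At 37 °C 4 were higher and 4 lower, against 3.3% and 2.15%. At 42 °C 3 were higher and 7 lower, against 2.51% and 3.08%. The total of 3 calls between the controls was 7 with 1 added before the log, and with 64 added the total at 37 °C was 5 in place of 8 and that at 42 °C was 5 in place of 10. Among the 7 were 4 of the 5 embryo maturation genes, with OsTIP3;1 at means of 54.9 in Annapurna 42 °C and 896 in IR64 42 °C, a log2 difference of -3.69 (limma adjusted p = 4.19e-14).

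The response to heat in Annapurna minus that in IR64 was tested directly. At 37 °C 2 of the 74 differences were called above 0 and 2 below, against 1.52% and 1.3% of all genes. At 42 °C 0 were called above 0 and 8 were called below, against 1.88% and 3.66%. The median was -0.11 log2 for the 74 genes and -0.08 for all genes. At an unadjusted p under 0.05, with no 2-fold limit, 23 lay above 0. The number below 0 and the share of all genes at that p were not counted, so the 23 do not show the balance of directions. The 23 include shifts at low readings, such as AMY1.2 at 0.0104 log2 (limma adjusted p = 0.000593). For the 5 grain genes the same differences of responses at 42 °C were -6.29 for AMY1.1, -2.15 for AMY1.3, -0.65 for EP3A, -0.70 for GLB1 and -3.08 for LTP-2, given without a test. Without replicate 3 of both control groups, AMY1.1 read 0.998 times its control in Annapurna 42 °C and 235 times in IR64 42 °C.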

How the data were processed

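The deposited series table holds 1 linear intensity per probe set and array; the authors made these intensity values with GCOS, per the submitters' processing notes, and the summarization and scaling are not given in the sources used here. No genome build is named in the series' files or labels, so no coordinates are given, and gene order alone was taken from a RefSeq gene table (assembly ASM3414082v1). Of 57381 probe sets, 187 control or reporter sets were left out; of 57194 tested, 22436 had 1 gene in the platform annotation, 95 several and 34663 none. A gene was read by its probe set with the highest mean. Array medians differed by at most 0.0372 log2 with 16 added, so no further normalization was applied. Log2 of intensity plus 16 was fitted with limma 3.58.1 in R 4.3.3 (6 group means, 18 arrays, 12 residual degrees of freedom, variance trend; checked on simulated data), with two-sided tests and Benjamini-Hochberg adjustment over all probe sets in each comparison; no p from 3 arrays against 3 by permutation can be below 0.1. No filter on low values was used. The number of arrays limits the precision.

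The 5 genes and the 10 lists of other grain genes, with the shoot and root markers, were chosen with earlier results of these data known. Genes named from the lists were drawn from all α-amylases and, in each other list, up to 4 called genes with the largest difference and the uncalled gene with the highest mean; genes most like each of the 5 were the 4 with the highest r among genes with a group mean over 100, and on single arrays the 6 named genes departing most. EM and AMY1.4 on single control arrays, GAMYB and the genes over 500 in IR64 42 °C were picked with their values in view. Alternatives were 1 or 64 added, quantile normalization, a fit limited to brighter probe sets (level not under the median), a replicate block, no variance trend, the mean of a gene's probe sets, and leaving out arrays. Figures and tables were made with Python 3.11.15, pandas 2.3.3 and matplotlib 3.10.9.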

Additional observations from a re-analysis of the deposited data

Results flagged for a closer look

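For 3 of the 5 grain genes every Annapurna 42 °C array lay below the Annapurna control mean and every IR64 42 °C array above the IR64 control mean, on the log2 scale. The Annapurna response minus the IR64 response was -6.29 for AMY1.1, -2.15 for AMY1.3 and -0.65 for EP3A, and the difference was not tested. The Annapurna direction of AMY1.1 and EP3A rests on control replicate 3. That of AMY1.3 is a small fall at low readings, from a mean of 9.93 to 7.98 on 1 of its 2 probe sets. Its log2 difference was -0.11 ± 0.071 (SE). Without control replicate 3 in either cultivar, EP3A read 1.03 times its control in Annapurna 42 °C and 5.93 times in IR64 42 °C, and AMY1.1 read 0.998 and 235 times. The differences of responses were then -7.39 for AMY1.1, -2.17 for AMY1.3 and -1.38 for EP3A.

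Among the other genes the difference of responses was itself called by limma. At 42 °C it was -3.84 for OsTIP3;1, -2.77 for OsPM19L1, -1.63 for EM and -1.49 for LEA19, and these 4 genes were called higher in IR64 42 °C and not in Annapurna 42 °C, each against its control. It was -1.14 for OsC4, -1.08 for Sbe1 and -1.33 for SSI at 42 °C. At 37 °C it was -1.71 for OsTIP3;1 and 1.67 for EM, so these 2 embryo maturation genes differed in opposite directions. TPP7 gave -1.95 at 37 °C and -1.39 at 42 °C, with IR64 at 4.64 to 5.05 on all its arrays. PDC1 gave 1.01 at 37 °C. The root marker NAS2 gave 1.60 at 37 °C and 3.08 at 42 °C.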

How the results depend on the processing

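The counts of called grain genes kept within 1.5 times under all alternatives run, with 3 exceptions whose cause was not tested. The count for Annapurna control against IR64 control was 3 as reported and 7 with 1 added, that for Annapurna 37 °C against IR64 37 °C was 8 and 5 with 64 added, and that for Annapurna 42 °C against IR64 42 °C was 10 and 5 with 64 added. Leaving out single arrays gave 8 to 10 calls for the last of these and 7 to 9 for the one before. Over the 9 comparisons, the other counts under single left-out arrays were 12 to 13 in Annapurna 37 °C, 10 to 11 in IR64 37 °C, 6 to 7 in Annapurna 42 °C, 11 to 12 in IR64 42 °C, 3 to 4 between the controls, and 3 to 4 and 7 to 10 for the differences of responses at 37 °C and 42 °C. Without replicate 3 of both controls, 8 of the 9 counts equalled those reported and the last was 9 in place of 8. With the replicate block the count in IR64 42 °C was 12, as without it, and the other 8 counts also equalled those reported; same-numbered arrays correlated over 0.1 in every pair for 0 of 15 pairs of groups, and 7 of 18 arrays were closest to their own number, so the numbers were not taken as pairs. Of 280 values of the 5 grain genes under other settings 45 moved by more than the replicate spread. Of 630 values with an array left out 0 did, but leaving out 1 of 3 arrays cannot move a mean by that much. That count therefore says nothing about stability. With single arrays left out, AMY1.1 in IR64 42 °C ran from 4.37 to 7.39. Of single list genes, 22 of 584 values lost their call under other settings and 10 of 1314 when an array was left out, and no value reversed. EUI1 accounted for 6 of the 10: its IR64 37 °C difference was -0.93 and its IR64 42 °C difference -0.93 without IR64 control replicate 2. AMY1.1 in IR64 42 °C gave 5.69 with 1 added and 4.80 with 64 added. AMY1.3 in IR64 37 °C gave 5.86 with 1 added, 3.30 with 64 added and 2.34 as the mean of its 2 probe sets, and in Annapurna 37 °C 3.14, 1.11 and 1.05 under the same 3 settings. Low readings near the array median limit all ratios.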

Other observations

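A set of probe sets read in 1 cultivar only was used to look at the cultivar labels, chosen after values were seen. In replicates 1 and 2 of the controls, 66 probe sets read over 200 in Annapurna and under 16 in IR64, and on IR64 control replicate 3 only 1 of them reached 32. The other way, 74 probe sets read over 200 in IR64 and under 16 in Annapurna, and 3 of them reached 32 on Annapurna control replicate 3. On the heated arrays the corresponding numbers were 3 to 5 in IR64 and 0 to 2 in Annapurna.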
